A study of Mus musculus with 12 samples.

Results

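The comparison asks whether maternal diabetes had the same effect on the left ventricle (LV) of Hif1a+/- offspring as on that of Wt offspring. Its members are the 14927 genes, of 46983 counted, with 10 or more counts in at least 3 of the 12 LV libraries, and all 12 libraries entered. For each gene the difference between offspring of diabetic and non-diabetic pregnancy was taken on the log2 scale within Hif1a+/- and within Wt, and the second was subtracted from the first. A value of 0 means that genotype and exposure combined additively on the log2 scale, a value above 0 that Hif1a+/- hearts from diabetic pregnancy held more RNA than the additive expectation, and a value below 0 that they held less. Each of the 4 groups had 3 samples from mice aged 12 weeks on the FVB background: Wt from non-diabetic pregnancy (samples 25, 42 and 89), Wt from diabetic pregnancy (50, 7 and 80), Hif1a+/- from non-diabetic pregnancy (14, 32 and 44) and Hif1a+/- from diabetic pregnancy (66, 72 and 77). The offspring came from Wt dams, made diabetic with streptozotocin or left untreated, and Hif1a+/- sires carrying the global Hif1atm1jhu null allele, so the mutation was present in every cell type and each Hif1a+/- mouse kept 1 working copy. Offspring from a diabetic pregnancy are called exposed and the others unexposed below.

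HIF-1α is the oxygen-regulated subunit of HIF-1, a transcription factor that raises glycolytic enzymes, glucose transporters and angiogenic factors when oxygen is low. High glucose is known to impair the stabilisation of HIF-1α, and in the heart HIF-1 takes part in development and in the balance between glucose and fatty acid use. A mouse with a single working allele keeps part of its HIF-1α, so the comparison concerns a partial and not a complete loss of the factor.

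The libraries held 16132442 to 39812939 counted reads. The 15 cardiomyocyte genes checked, sarcomere and calcium handling genes among them, were present in every sample and summed to between 2618592 and 2950175 normalised counts. The Hif1a gene itself gave 1249, 1279 and 1618 in unexposed Wt, 1081, 1328 and 1325 in exposed Wt, 2004, 1769 and 1996 in unexposed Hif1a+/- and 1597, 1448 and 1844 in exposed Hif1a+/-. Its count was thus not lower in the Hif1a+/- samples. Among unexposed mice, and also among exposed mice, every Hif1a+/- sample was higher than every Wt sample. Overlap was seen only between exposed Hif1a+/- (lowest value 1448) and unexposed Wt (highest value 1618). The 3′-seq method counts the 3′ end of a transcript, away from the deletion of the null allele at the start of the coding sequence, so this count does not check the genotype labels. The labels give every mouse as female and the study describes males. Y-linked transcripts exceeded Xist in 11 libraries, and in exposed Hif1a+/- sample 72 the order was reversed (Xist 3539 and the Y-linked genes together 25.6 normalised counts). Values without that sample are therefore given beside part of the results. Unexposed Wt sample 25 stood apart in haemoglobin and other erythroid genes, which summed to 164722 normalised counts there and to between 4185 and 39955 in the other 11 samples. In whole tissue, fewer cells of a type and less RNA per cell cannot be told apart.

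No gene departed from additivity at an adjusted p under 0.1 in the edgeR quasi-likelihood test (0 of 14927 genes, 0%, smallest adjusted p = 0.998). At an unadjusted p under 0.05 there were 381 genes (2.55%), 228 above additivity (1.53%) and 153 below it (1.02%). DESeq2, the tool used by the study, called 4 of 14918 genes (0.0268%): Txnip, Fbn1 and Duox1 above the additive expectation and Ivns1abp below it. limma-voom called none and had 394 genes under the unadjusted threshold. Without exposed Hif1a+/- sample 72 the edgeR test again called none, with 245 genes above and 108 below at the unadjusted threshold, and DESeq2 called 12, all of them above, with Pi16, Adgrd1, Timp1 and 3 of the 4 genes among them. The 4 DESeq2 calls depended on single samples. With each of the 12 samples left out in turn, Txnip was called in 6 of the 12 fits, Fbn1 in 3, Duox1 in 2 and Ivns1abp in 2. The edgeR test called 1 gene in 1 of its 12 fits, the proteoglycan gene Vcan without exposed Wt sample 7 (log2 0.98, adjusted p = 0.089). Exposed Wt sample 80 weighed most on the unadjusted counts, which were 553 above and 598 below without it. Below additivity there were 76 genes without unexposed Wt sample 89, 282 without sample 25 and 95 without unexposed Hif1a+/- sample 32, and above it 150 without sample 32. The samples came from separate mice of several litters, so the p-values measure the spread between animals. Over all genes the interaction was above 0 in 7113 (47.7%) and its median was -0.01.

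The precision of the design bounds what these tests could show. The median standard error of the interaction was 0.21 on the log2 scale and the median half-width of its 95% interval was 0.45. The whole interval lay within a 2-fold departure in either direction for 10857 genes (72.7%), and within a 1.5-fold departure for 6949 genes (46.6%). For the first set a departure beyond 2-fold lay outside the interval. For the remaining genes the interval, from 3 samples per group, reached beyond 2-fold. A fitted departure of more than 1 log2 unit in size was seen in 342 genes (2.29%).

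The genes with an unadjusted p under 0.05 were mostly genes in which the fitted effects of exposure had opposite signs in the 2 genotypes. Of the 228 above additivity, 169 were lower in exposed than in unexposed Wt and higher in exposed than in unexposed Hif1a+/-, 57 were higher in both genotypes and 2 lower in both. Of the 153 below additivity, 122 were higher in exposed Wt and lower in exposed Hif1a+/-, 29 were lower in both and 2 higher in both. Over all genes tested, 17.5% were lower in exposed Wt and higher in exposed Hif1a+/-, and 20.1% the reverse. The fitted effect of exposure was the larger one in Hif1a+/- in 172 of the 228 (75.4%) and in 119 of the 153 (77.8%), against 63.4% of all genes. Because these genes were picked by the interaction, such shares describe them and were not tested. Across the 14927 genes, which are not independent replicates, the effects of exposure in Wt and in Hif1a+/- had a Pearson correlation of 0.23 and a Spearman correlation of 0.30, and these 2 effects share no sample.

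**Figure D1:**
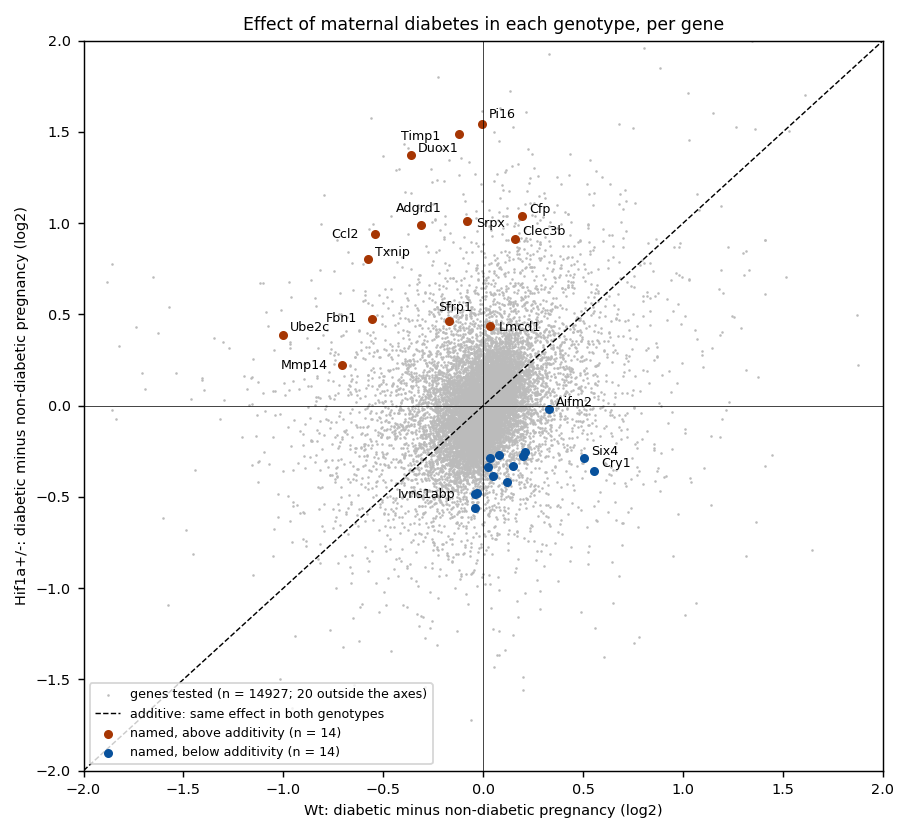
Effect of maternal diabetes on each of the 14927 genes (grey points; 20 lie outside the axes) in Wt (x axis, log2 difference) and in Hif1a+/- (y axis, log2 difference), with the additive expectation as a dashed diagonal. The 14 named genes above additivity (brown) lie left of or near 0 on the x axis and above 0 on the y axis, with Pi16 at -0.01 and 1.54, and the 14 named genes below additivity (blue) lie to the lower right, with Cry1 at 0.56 and -0.36.

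The genes described next were the 14 protein-coding genes in each direction with the smallest p among those averaging 50 or more normalised counts. Their adjusted p was 0.998 in the edgeR test, so their values are a description of the largest departures relative to error and none was called by that test. Among the 14 above additivity the interaction ranged from 0.41 to 1.73 on the log2 scale, and among the 14 below from -0.91 to -0.32. All 28 had the same sign on the linear scale of normalised counts. The 3 exposed Hif1a+/- samples were all higher than the 3 unexposed Hif1a+/- samples in 11 of the 14 above, an arrangement found in 11.7% of all genes, and all lower in 11 of the 14 below, found in 12.4% of all genes. The choice of genes used this contrast, so nothing is read from these counts.

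Txnip and Fbn1 were the named genes in which the exposed samples separated from the unexposed samples in opposite directions in the 2 genotypes. Across all genes, 17 (0.114%) were separated in this way, lower in Wt and higher in Hif1a+/-, and 7 (0.0469%) in the other. Txnip encodes thioredoxin-interacting protein, which is induced by glucose, restrains glucose uptake and inhibits the antioxidant thioredoxin. Its normalised counts were 6148, 5012 and 9347 in unexposed Wt, 4204, 4744 and 4841 in exposed Wt, 5454, 4311 and 4614 in unexposed Hif1a+/- and 9800.4, 9402 and 5982 in exposed Hif1a+/-. Exposed Wt hearts thus held less Txnip than any unexposed Wt heart, and exposed Hif1a+/- hearts more than any unexposed Hif1a+/- heart. The additive expectation for the last group was 3223, and the fitted level was 2.6 times that, an interaction of 1.38 ± 0.30 log2 units (SE, n = 3 per group), made of -0.58 in Wt and 0.80 in Hif1a+/-. DESeq2 gave Txnip an adjusted p of 0.052. Without sample 72 the interaction was 1.29, and it ranged over 1.09 to 1.57 when each sample was left out in turn, lowest without unexposed Wt sample 89. Fbn1 encodes fibrillin-1, the backbone of extracellular microfibrils. It gave 1661, 1962 and 2222 in unexposed Wt, 1063, 1649 and 1274 in exposed Wt, 1974, 2001 and 1990.4 in unexposed Hif1a+/- and 2663, 2399.6 and 3285 in exposed Hif1a+/-. The unexposed groups were at a like level and the exposed groups lay on either side of them. The interaction of Fbn1 was 1.03 ± 0.22, 2.05 times the expectation of 1356, with an adjusted p of 0.052 in DESeq2 and a value of 1.13 without sample 72.

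Duox1, a dual oxidase that makes hydrogen peroxide, had the largest interaction of the 28. Its normalised counts were low, at 47.5, 43.9 and 59.8 in unexposed Wt, 32.2, 44.2 and 41.3 in exposed Wt, 41.9, 40.5 and 46.3 in unexposed Hif1a+/- and 90.7, 89.5 and 157 in exposed Hif1a+/-. All 3 exposed Hif1a+/- samples were higher than the other 9. The interaction was 1.73 ± 0.35, 3.36 times the additive expectation, with an adjusted p of 0.085 in DESeq2 and a value of 1.87 without sample 72. Timp1, a secreted inhibitor of matrix metalloproteinases, showed the same arrangement, with 44.7, 31.6 and 47.9 in unexposed Wt, 32.2, 42.7 and 38.7 in exposed Wt, 38.4, 26.6 and 32.7 in unexposed Hif1a+/- and 102, 67.9 and 108 in exposed Hif1a+/-. Its interaction of 1.61 ± 0.35 had an adjusted p of 0.246 in DESeq2 and ranged over 1.48 to 1.79 with single samples left out.

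Pi16, Clec3b, Sfrp1, Srpx and Mmp14 encode secreted or membrane proteins and were among the 14 named genes above additivity. Pi16, which marks adventitial fibroblasts and encodes a secreted peptidase inhibitor-like protein, gave 1455, 1067 and 1591 in unexposed Wt, 1114, 1709.6 and 1266 in exposed Wt, 1258, 1362 and 1259 in unexposed Hif1a+/- and 3308, 2043 and 6043 in exposed Hif1a+/-. The 9 samples of the other groups lay between 1067 and 1710 and the exposed Hif1a+/- samples lay above them, widely spread among themselves. Its interaction of 1.55 ± 0.41 was 1.86 without sample 72 and 1.05 without sample 77. Clec3b, which encodes the plasminogen-binding protein tetranectin, had 1613, 2445 and 2662 in exposed Hif1a+/- and between 1088 and 1514 in the other groups, an interaction of 0.75 ± 0.22. Sfrp1, a secreted Wnt inhibitor, had an interaction of 0.63 ± 0.19, with 592, 546 and 665 in exposed Hif1a+/- against 401, 495 and 408 in unexposed Hif1a+/-. Srpx, a sushi-repeat secreted protein, stood at 155, 128 and 149 in exposed and 72.5, 74.7 and 66.6 in unexposed Hif1a+/-, while its Wt samples overlapped each other (141, 84.7 and 76.4 unexposed and 78, 107 and 96.9 exposed). Its interaction was 1.09 ± 0.31. Mmp14, a membrane-bound collagenase, differed in another way. It was lower in all exposed Wt samples (269, 365 and 291) than in unexposed Wt (380.1, 505 and 619.6), and the 2 Hif1a+/- groups overlapped (388, 402 and 441 unexposed and 453, 593 and 398 exposed). The interaction of Mmp14 was therefore carried mainly by Wt, at -0.71 in Wt and 0.22 in Hif1a+/-. With single samples left out it ranged over 0.75 to 1.09.

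The lists of fibroblast genes hold 5 of the named genes (Pi16, Clec3b, Sfrp1, Fbn1 and Timp1) and were drawn up with earlier results of these data known, so their counts are not independent of the values above. Of the 10 adventitial fibroblast markers tested, 9 had an interaction above 0, where 47.7% of all genes did, and 6 of them had an unadjusted p under 0.05 (Pi16, Cd248, Clec3b, Dpt, Mfap5 and Sfrp1). Over all genes, 1.53% were above additivity at that threshold. The list median was 0.52, against -0.01 over all genes. Their summed counts were 11709 to 13788 in unexposed Wt, 12524 to 15502 in exposed Wt, 11877 to 12740.4 in unexposed Hif1a+/- and 17307 to 25751 in exposed Hif1a+/-, so that the last group lay above the other 9 samples. Of 21 fibroblast and matrix genes, 20 were above 0 and 6 passed the unadjusted threshold, with a median of 0.43. These 6 were the fibrillar collagens Col1a1 and Col3a1, the procollagen C-proteinase enhancer Pcolce, the fibroblast transcription factor Tcf21, Fbn1 and Timp1. The summed counts of this list were 56288 to 72695 in unexposed Wt, 57395 to 71347 in exposed Wt, 61554 to 68412 in unexposed Hif1a+/- and 66742 to 85451 in exposed Hif1a+/-, and the exposed Hif1a+/- range overlapped the other 3. The mean of log2(normalised count + 1) over the list was 10.68 to 10.84 in exposed Hif1a+/- and at most 10.59 in the other 9 samples. The lowest member was Dcn, the proteoglycan decorin, at -0.01. The median of the list was -0.11 for exposure in Wt and 0.34 in Hif1a+/-. Without sample 72 the medians of the adventitial and matrix lists were 0.61 and 0.34, with 6 and 5 members under the unadjusted threshold. None of these genes was called by the edgeR test, and the part that the number of fibroblasts had in these values was not tested.

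Of the 14 named genes above additivity, Ccl2 and Cfp act in the immune response. Ccl2, the chemokine that draws monocytes into tissue, gave 78.3, 92.9 and 61.7 in unexposed Wt, 75.9, 37.4 and 47.8 in exposed Wt, 49.8, 53.1 and 59.8 in unexposed Hif1a+/- and 94.8, 82.6 and 137 in exposed Hif1a+/-. In Hif1a+/- the exposed samples were all higher than the unexposed ones, and in Wt the groups overlapped. The interaction of Ccl2 was 1.48 ± 0.38, and it was 1.25 without exposed Hif1a+/- sample 77 and 1.82 without exposed Wt sample 50. Cfp, properdin of the alternative complement pathway, gave 204, 223 and 189 in unexposed Wt, 205, 284 and 214 in exposed Wt, 165, 138 and 187 in unexposed Hif1a+/- and 369, 339 and 303 in exposed Hif1a+/-, an interaction of 0.84 ± 0.22. Its Wt effect was 0.20 and its Hif1a+/- effect 1.04. C3, the central complement component, counted 4284, 2064 and 2338 in unexposed Wt, 2629, 2061 and 3314 in exposed Wt, 2421, 2307 and 1858 in unexposed Hif1a+/- and 3899.6, 3661 and 8355 in exposed Hif1a+/-. Sample 77 held the highest C3 value and unexposed Wt sample 25 the next, and the interaction was 1.38 ± 0.45 and 0.90 without sample 77.

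All 24 macrophage markers were tested and all 24 had an interaction above 0, between 0.24 (the haemoglobin scavenger receptor Cd163) and 0.89 (the complement subunit C1qb), with a median of 0.63. Of these, 8 had an unadjusted p under 0.05: C1qb, C1qc, Tyrobp, Laptm5, Mpeg1, Pf4, F13a1 and Stab1. Over all genes tested, 47.7% were above 0 and 1.53% were above additivity at that threshold. The study listed these 8 as changed in exposed Hif1a+/- hearts, from the same libraries. This list and the monocyte and neutrophil list below were drawn up with earlier results of these data known. Their counts are therefore a description and no independent support. No marker was at 0 in any group. The summed counts of the list were 11518 to 14017 in unexposed Wt, 11481 to 18009 in exposed Wt, 8499.9 to 12537 in unexposed Hif1a+/- and 16459.6 to 24200 in exposed Hif1a+/-. The ranges of the 2 exposed groups overlapped, and the unexposed Hif1a+/- range began below the other groups. The list median for exposure was 0.27 in Wt and 0.87 in Hif1a+/-, and for genotype it was -0.17 among unexposed and 0.42 among exposed mice. Pf4, a chemokine of resident cardiac macrophages, gave 264, 241 and 279 in unexposed Wt, 238, 253 and 314 in exposed Wt, 239, 169.6 and 235 in unexposed Hif1a+/- and 312, 365 and 409.8 in exposed Hif1a+/-, an interaction of 0.71 ± 0.22. C1qb gave 833, 850.4 and 1155 in unexposed Wt, 926, 1075 and 1687 in exposed Wt, 845, 607 and 817 in unexposed Hif1a+/- and 1569, 1360.1 and 2526 in exposed Hif1a+/-. Its highest exposed Wt sample (80) exceeded 2 of the 3 exposed Hif1a+/- samples, and its interaction was 0.89 ± 0.35. Without sample 72, 11 macrophage markers had an unadjusted p under 0.05 and the median was 0.73, and without sample 77 the median was 0.41. Whether the number of macrophages took part in the other immune values was not tested. The markers of a cell type share their cells, so they are not independent of each other.

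Monocyte and neutrophil markers showed a median of 0.83, with 10 of 11 tested above 0 and 6 under the unadjusted threshold, among them S100a8, S100a9, Itgam, Lyz2 and Vav1. The exception was Ccr2, the receptor of Ccl2, at -0.09. Among all genes, 47.7% were above 0 and 1.53% were above additivity at the unadjusted threshold. S100a8 and S100a9, the subunits of calprotectin from neutrophils and monocytes, had the largest values, 4.55 ± 1.32 and 4.48 ± 1.24. S100a9 gave 229, 10.2 and 27.6 in unexposed Wt, 41.6, 16 and 20.7 in exposed Wt, 14, 8.9 and 4.5 in unexposed Hif1a+/- and 72.7, 47.2 and 73 in exposed Hif1a+/-. Unexposed Wt sample 25, the library with the high haemoglobin counts, was the highest of its group, and without it the interaction of S100a9 was 2.33 and that of S100a8 2.42. Itgam, the integrin CD11b, gave 51.7, 28.6 and 39.6 in unexposed Wt, 31.2, 52.6 and 43.9 in exposed Wt, 21, 29.1 and 32.7 in unexposed Hif1a+/- and 69.8, 56.1 and 76 in exposed Hif1a+/- and had an interaction of 1.17 ± 0.39 (0.97 without sample 25). Genes of antigen presentation lay on the other side, with a median of -0.30 and 1 of 8 above 0, although exposure had positive list medians in both genotypes (0.87 in Wt and 0.73 in Hif1a+/-). H2-Ab1, an MHC class II chain, gave 169, 395 and 518 in unexposed Wt, 261, 757 and 1762 in exposed Wt, 385, 445 and 272 in unexposed Hif1a+/- and 334, 497 and 1034 in exposed Hif1a+/-. Exposed Wt sample 80 was the highest of all, and the list median was 0.29 without it. Interferon-induced genes had a median of -0.09, and none of 19 was under the unadjusted threshold.

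The other named genes above additivity had separate roles. Lmcd1, a LIM-domain cofactor of GATA factors expressed in the heart, had the smallest interaction of the 14 at 0.41 ± 0.11, with 1783, 1662 and 1794 in unexposed Wt, 1762, 1857 and 1749 in exposed Wt, 1390, 1524 and 1495 in unexposed Hif1a+/- and 2048, 2079 and 1875 in exposed Hif1a+/-. Unexposed Hif1a+/- hearts were the lowest group and exposed Hif1a+/- hearts the highest. Adgrd1, an adhesion G protein-coupled receptor, gave 410.5, 235 and 635 in exposed and 226, 237 and 176 in unexposed Hif1a+/-, so these groups overlapped, and its interaction was 1.30 ± 0.40. It was 1.59 without sample 72 and 0.92 without sample 77. Ube2c, the ubiquitin-conjugating enzyme of the anaphase-promoting complex, was lower in every exposed Wt sample (41.6, 35.1 and 36.2) than in unexposed Wt (108, 59.2 and 61.7). Its Hif1a+/- groups overlapped (33.2, 39.2 and 53 unexposed and 40.1, 75.7 and 50 exposed), with sample 72 the highest. The interaction of Ube2c ranged over 1.07 to 1.60 with single samples left out. Of 16 other cell cycle genes, 15 were above 0 with a median of 0.32, none with an unadjusted p under 0.05, and without sample 72 the number above 0 was 11.

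**Figure D2:**
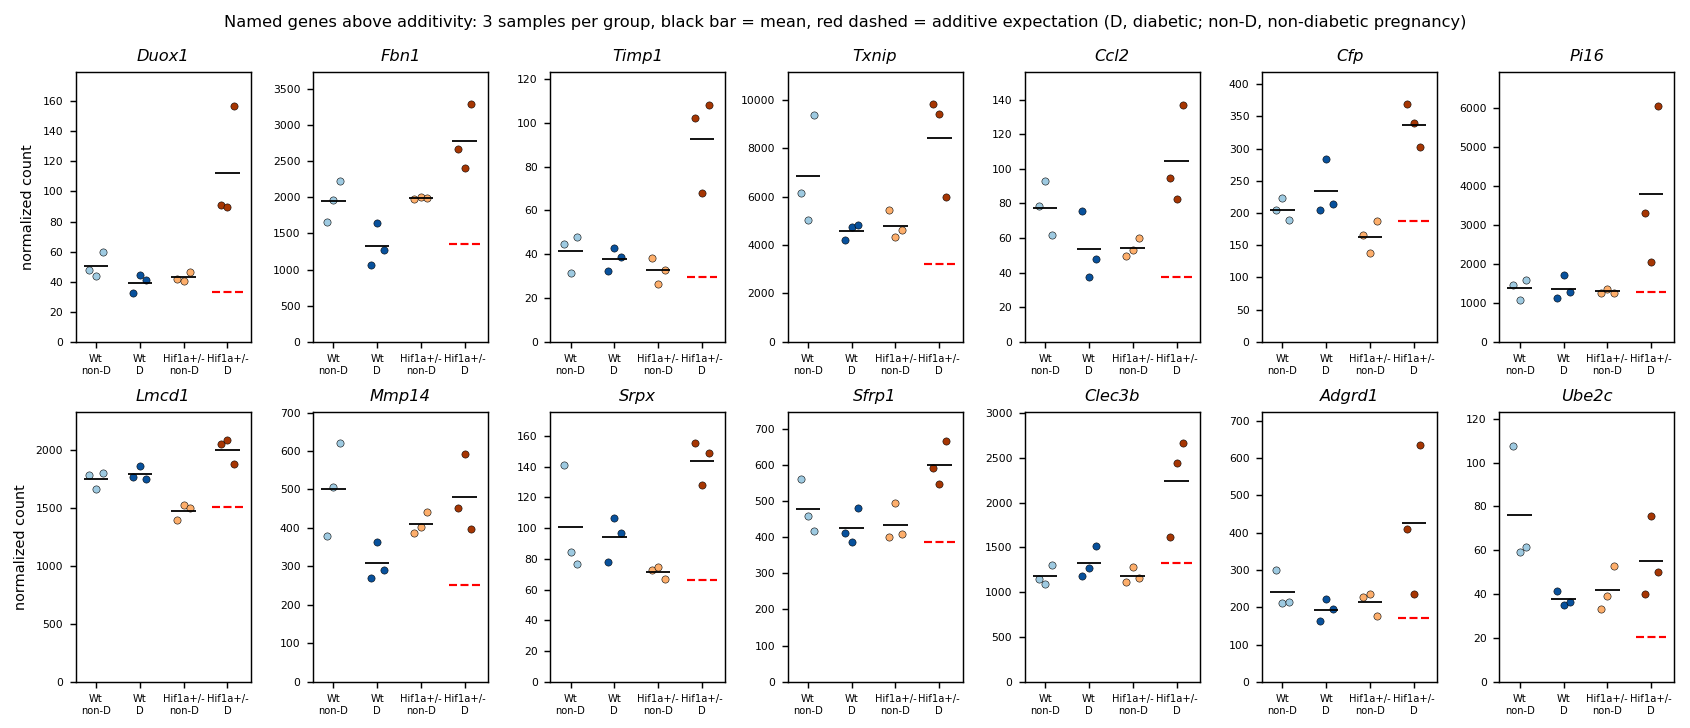
Normalised counts (y axes, each from 0) of the 14 named genes above additivity in the 4 groups (x axes), with 3 samples per group as points, the group mean as a black bar and the additive expectation for exposed Hif1a+/- as a red dashed line. In Txnip the exposed Hif1a+/- samples reach 9800.4 where the expectation is 3223. In Mmp14 and Ube2c the Hif1a+/- groups overlap and every exposed Wt sample lies below every unexposed Wt sample.

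The departures below additivity were smaller. Ivns1abp, which encodes an actin-binding Kelch protein that also binds splicing factors and whose RNA is abundant in the heart, gave 46585, 53261 and 48590 in unexposed Wt, 50461, 48730 and 46393 in exposed Wt, 54617, 56455 and 55998 in unexposed Hif1a+/- and 40686, 40287 and 39658 in exposed Hif1a+/-. The exposed Hif1a+/- samples lay close together and below the other 9, and unexposed Hif1a+/- was the highest group. Its interaction was -0.45 ± 0.11, 0.736 times the expectation of 54620, with an adjusted p of 0.052 in DESeq2 and -0.45 without sample 72. The list of splicing and cold-inducible RNA-binding genes, which holds Ivns1abp, had 13 of 15 members below 0 and a median of -0.19, and Ivns1abp was the member under the unadjusted threshold. Among all genes, 47.7% were above 0 and 1.02% were below additivity at that threshold. The splicing kinase Clk1 had an interaction of -0.26 ± 0.15 and the cold-inducible RNA-binding protein Rbm3 -0.33 ± 0.24.

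Psmd1, a subunit of the 26S proteasome, gave 3349, 3081 and 2739.8 in unexposed Wt, 3425, 3047 and 2884 in exposed Wt, 3234, 3307 and 3262 in unexposed Hif1a+/- and 2611, 2595 and 2585 in exposed Hif1a+/-, and the exposed Hif1a+/- samples lay close together below the other 9. The interaction of Psmd1 was -0.36 ± 0.12. Dhx9, an RNA helicase, had 1239, 1241 and 1195 in exposed and 1638, 1567 and 1581 in unexposed Hif1a+/-, while Wt ranged from 1193 to 1584, and its interaction was -0.43 ± 0.15. Rps6kb1, the S6 kinase downstream of mTOR, had an interaction of -0.32 ± 0.11, with 927, 964 and 1006 in exposed and 1175, 1214 and 1128 in unexposed Hif1a+/-. Fastkd1, which acts on mitochondrial RNA, had 896, 862 and 774 in exposed and 1004, 1017 and 1023 in unexposed Hif1a+/- and an interaction of -0.35 ± 0.12. In these 4 genes the Wt groups overlapped and the fitted Wt effect was between 0.03 and 0.08.

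Jph1, a junctophilin that holds the sarcoplasmic reticulum near the surface membrane, gave 577, 567 and 597 in exposed and 733, 729 and 602 in unexposed Hif1a+/-, with an interaction of -0.46 ± 0.16. Asb15, a muscle protein with ankyrin repeats and a SOCS box, gave 1715, 1434 and 1617 and 2454, 1988 and 2199 in the same order, an interaction of -0.44 ± 0.16. Six4, a homeobox factor of muscle development, was carried by both genotypes, at 0.50 in Wt and -0.29 in Hif1a+/-. Its samples overlapped in both (162, 179.7 and 118 in unexposed Wt, 239, 247 and 162 in exposed Wt, 213, 195 and 158 in unexposed Hif1a+/- and 166, 148 and 152 in exposed Hif1a+/-), and the interaction was -0.79 ± 0.27. Prdm16, a transcription regulator of compact myocardium and brown fat, had an interaction of -0.47 ± 0.16, with 321, 343 and 365 in exposed and 422, 426 and 390.4 in unexposed Hif1a+/-.

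Other named genes have other roles. Sclt1, a component of centriole appendages, had an interaction of -0.53 ± 0.18 and counts of 177, 189.8 and 164 in exposed and 225, 237 and 244 in unexposed Hif1a+/-. Dhdh, a dihydrodiol dehydrogenase, had an interaction of -0.48 ± 0.13, with 555, 552 and 506 and 688, 639 and 692 in the same order. Aifm2, the ferroptosis suppressor FSP1, was the named gene below additivity in which Wt alone separated. It gave 795, 845 and 820.3 in unexposed Wt, 995, 1086 and 1015 in exposed Wt, 888, 917 and 948 in unexposed Hif1a+/- and 922, 808 and 999.5 in exposed Hif1a+/-, which is 0.33 in Wt and -0.02 in Hif1a+/-, and an interaction of -0.35 ± 0.12.

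**Figure D3:**
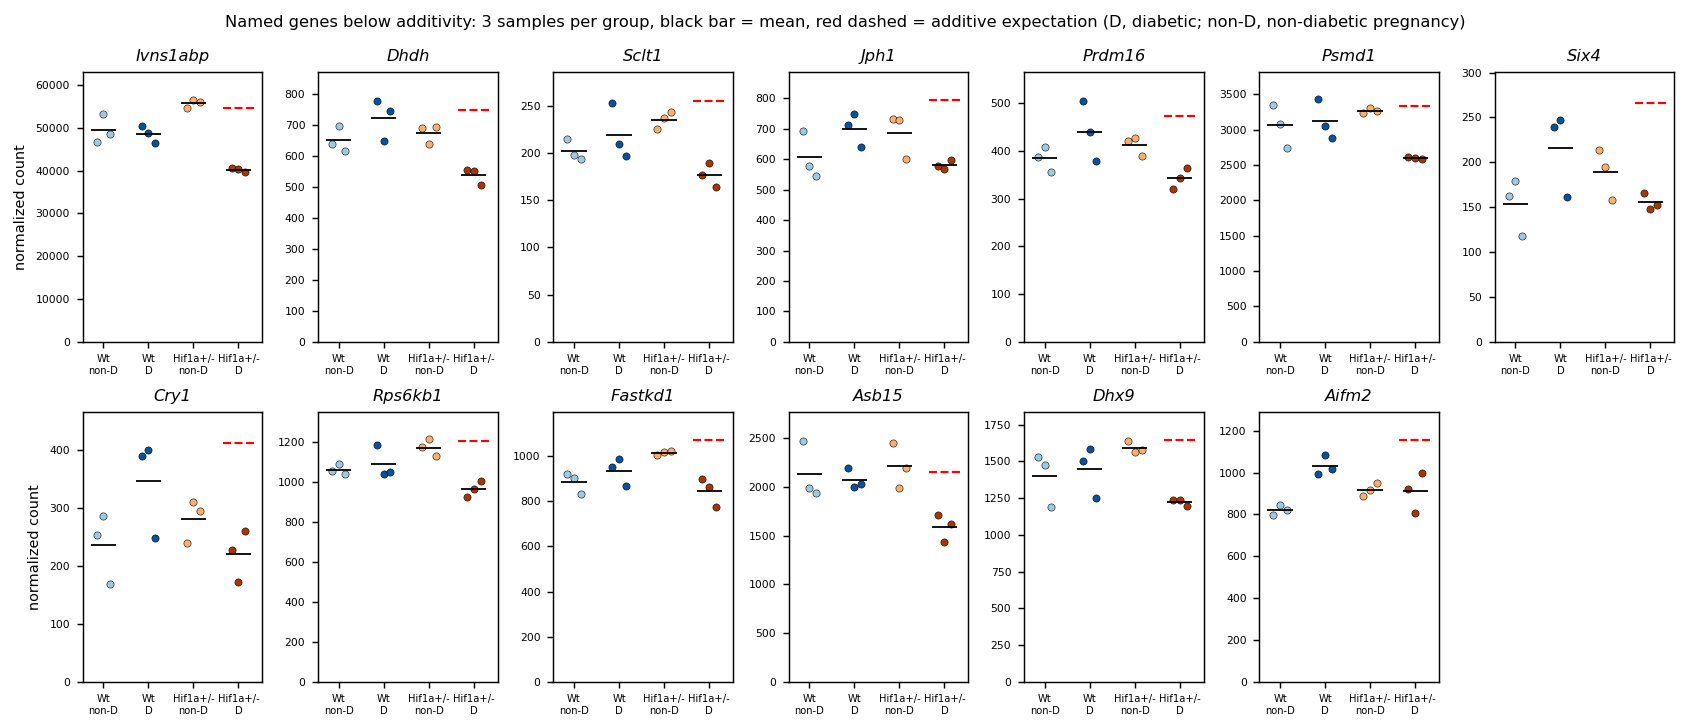
Normalised counts (y axes, each from 0) of 13 of the 14 named genes below additivity in the 4 groups (x axes), with 3 samples per group as points, the group mean as a black bar and the additive expectation for exposed Hif1a+/- as a red dashed line. In Ivns1abp the exposed Hif1a+/- samples lie at 40686, 40287 and 39658, under an expectation of 54620, and in Aifm2 all exposed Wt samples lie above all unexposed Wt samples.

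Cry1, a repressor of the circadian clock, was the named gene with the lowest interaction, -0.91 ± 0.32. It gave 254, 287 and 169 in unexposed Wt, 390, 401 and 248 in exposed Wt, 239, 311 and 294 in unexposed Hif1a+/- and 228, 173 and 259.9 in exposed Hif1a+/-. Exposed Wt samples 50 and 7 were the highest of the 12, sample 80 was at the level of the other groups, and the groups overlapped in both genotypes. Of 16 clock genes, 13 were below 0 with a median of -0.63, from -2.16 for Ciart to 1.48 for Npas2, and 2 (Cry1 and Hlf) were under the unadjusted threshold. Among all genes, 47.7% were above 0 and 1.02% were below additivity at that threshold. Hlf, a clock output factor, gave 468, 434 and 290 in unexposed Wt, 605, 529 and 939 in exposed Wt, 705, 459 and 398 in unexposed Hif1a+/- and 348, 377 and 674 in exposed Hif1a+/-. Npas2, an activator whose phase is opposite to that of the clock output factors, gave 40.5, 91.9 and 115 in unexposed Wt, 35.4, 42.7 and 14.2 in exposed Wt, 23.6, 74.7 and 76.7 in unexposed Hif1a+/- and 82.6, 69.8 and 28 in exposed Hif1a+/- and an interaction of 1.48 ± 0.73. The list median was -0.83 without unexposed Wt sample 25, with 7 members below additivity at the unadjusted threshold, and it was -0.24 without unexposed Hif1a+/- sample 14. The hour at which each heart was taken is not given in the sources used here, so its part in the clock values was not tested.

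Promoter windows of the named genes were searched for the core of the hypoxia response element, since HIF-1 binds it. The search used ACGTG and GCGTG on either strand in windows of 250 bases before to 50 after the annotated start (RefSeq, build GRCm38.p6). The E-box CACGTG, which clock factors bind, holds ACGTG on both strands and so counts as 2 overlapping matches. A window was found for 10 of the 14 genes above additivity and 7 of these held the motif. For the genes below, 11 of 14 had a window and 9 held it. Of all 27025 genes with a window, 46.7% held it. That base was not limited to genes expressed in the LV, as the named genes were, so the shares are not matched. These counts are a description, and a match in the letters is no evidence that HIF-1 binds there. Windows of 3 genes are shown, with the matched letters in capitals: Cry1, with 5 matches (chr10:85185005-85185304, minus strand), Ivns1abp, with 3 (chr1:151344236-151344535, plus strand) and Duox1, with 2 (chr2:122315422-122315721, plus strand). Other named genes also had 2 matches. The windows are written 5′ to 3′ and are those of the named genes with the most matches, ties settled by the smallest p. They were thus picked for holding the motif and do not represent the named genes.
Cry1: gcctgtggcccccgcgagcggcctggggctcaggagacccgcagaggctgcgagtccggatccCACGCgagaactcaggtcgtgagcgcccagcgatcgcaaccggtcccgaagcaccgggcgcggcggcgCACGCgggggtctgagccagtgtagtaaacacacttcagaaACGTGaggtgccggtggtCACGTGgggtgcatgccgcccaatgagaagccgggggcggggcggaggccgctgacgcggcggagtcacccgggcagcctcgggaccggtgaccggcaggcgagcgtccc
Ivns1abp: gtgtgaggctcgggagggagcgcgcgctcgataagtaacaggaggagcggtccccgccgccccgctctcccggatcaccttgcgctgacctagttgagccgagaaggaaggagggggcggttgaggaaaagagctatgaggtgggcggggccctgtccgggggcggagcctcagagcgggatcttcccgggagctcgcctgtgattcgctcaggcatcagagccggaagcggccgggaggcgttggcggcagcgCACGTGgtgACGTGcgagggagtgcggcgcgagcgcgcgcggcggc
Duox1: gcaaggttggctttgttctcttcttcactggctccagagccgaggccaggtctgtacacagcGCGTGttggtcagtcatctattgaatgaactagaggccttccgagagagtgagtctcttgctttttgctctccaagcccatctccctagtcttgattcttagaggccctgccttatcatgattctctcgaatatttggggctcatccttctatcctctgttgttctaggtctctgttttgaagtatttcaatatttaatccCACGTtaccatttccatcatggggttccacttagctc
In the Cry1 window the E-box lies closest to the start among the matches, and in the Ivns1abp window an E-box and a further ACGTG lie near the end of the window.

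Of 32 known HIF-1 targets tested, 13 were above 0 and 19 below, where 47.7% of all genes were above 0. The list median was -0.04, and 1 target was under the unadjusted threshold in either direction. This was Eno1, the glycolytic enolase, which gave 2475, 2181 and 2464 in unexposed Wt, 2435, 2208 and 2233 in exposed Wt, 1927, 1884 and 2095 in unexposed Hif1a+/- and 2413, 2155 and 2456 in exposed Hif1a+/-. Its interaction was 0.30 ± 0.12, and unexposed Hif1a+/- was the lowest group. Without unexposed Wt sample 25 no target was above additivity at the unadjusted threshold and 1 was below, with a list median of -0.14. Without sample 72 there were 2 targets above and none below. Pdk1, the kinase that closes pyruvate dehydrogenase, had an interaction of -0.27 ± 0.13, with 7844, 7839.9 and 7944 in exposed and 9281, 10444 and 8693 in unexposed Hif1a+/-. Kdm3a, a histone demethylase induced by hypoxia, had an interaction of -0.33 ± 0.18. Genes of fatty acid use were below 0 in 20 of 23, with a median of -0.08 and none under the unadjusted threshold, where 47.7% of all genes were above 0. Without sample 72 this was 15 of 23, with a median of -0.05. Of 26 respiratory chain genes, 19 were below 0 with a median of -0.04, and 13 were below 0 without unexposed Wt sample 25. The 15 cardiomyocyte genes had a median of -0.02, between -0.19 (Ttn, the giant sarcomere spring titin) and 0.07 (Myl2, a ventricular myosin light chain). Genes of excitation had a median of -0.05 and those of cardiac stress -0.23, with the natriuretic peptide gene Nppb at -0.80 ± 0.56.

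A further list held 10 genes, some of those with RNA or protein data from another assay. It leaves out others that the study assayed, among them Pi16, Fbn1, Timp1, Cfp and Cd248, which were under the unadjusted threshold. None of the 10 in the list had an unadjusted p under 0.05, which does not show that they were additive. The interaction was 0.45 ± 0.33 for Adgre1, the macrophage antigen F4/80, and 0.26 ± 0.22 for Tnfrsf1b, a tumour necrosis factor receptor. Adgre1 was 0.18 without unexposed Wt sample 89, and Tnfrsf1b was 0.082 without exposed Hif1a+/- sample 77. Vegfa, the angiogenic target of HIF-1, ranged from 4772 to 13280 over the 12 samples and had an interaction of -0.37 ± 0.46, which was -0.084 without unexposed Hif1a+/- sample 44 and -0.66 without exposed Wt sample 80. The interaction was 0.15 ± 0.16 for the lactate dehydrogenase gene Ldha, -0.05 ± 0.16 for the fatty acid transporter Cd36, -0.12 ± 0.16 for the endothelial gene Pecam1 and 0.03 ± 0.16 for the growth factor Tgfb1. Gja1, the gap junction protein connexin 43, gave 15905, 19803 and 15786 in unexposed Wt, 15916, 10501 and 12955 in exposed Wt, 15015, 18654 and 21288 in unexposed Hif1a+/- and 14312, 12717 and 15092 in exposed Hif1a+/-. Its fitted level was lower in exposed mice of both genotypes (-0.39 in Wt and -0.39 in Hif1a+/-), and its 95% interval for the interaction ran from -0.48 to 0.48. Hprt, the reference gene of the study, had an interaction of 0.01 ± 0.13. The interaction of Hif1a itself was -0.09 ± 0.17.

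**Figure D4:**
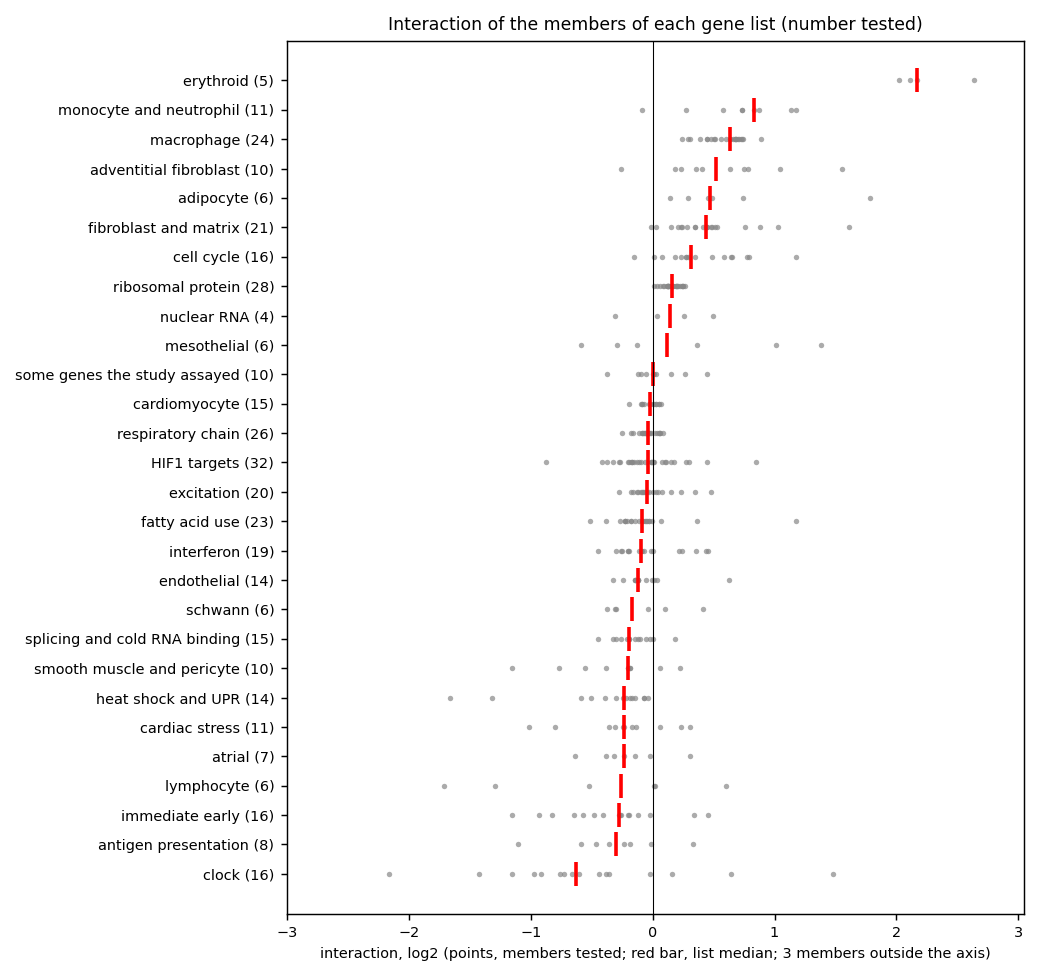
Interaction (x axis, log2) of the tested members of each gene list (points) with the list median as a red bar and the number of members tested in brackets; 3 members lie outside the axis. Macrophage genes lie between 0.24 and 0.89, clock genes have the lowest median at -0.63, and cardiomyocyte and respiratory chain genes lie close to 0.

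Stress response, ribosomal and remaining cell type lists were described in the same way. Among all genes tested, 47.7% had an interaction above 0. All 14 heat shock and unfolded protein response genes were below 0, with a median of -0.23, with no member under the unadjusted threshold, and 11 were below 0 without sample 72. Of 16 immediate early genes, 14 were below 0, with a median of -0.27. All 28 ribosomal protein genes were above 0, between 0.01 and 0.27, where 47.7% of all genes were, with no member under the unadjusted threshold. Their median was 0.16, and 0.057 without unexposed Wt sample 89. The 5 erythroid genes had a median of 2.17 that was -0.12 without unexposed Wt sample 25. Smooth muscle and pericyte genes had a median of -0.20 with 8 of 10 below 0, and the smooth muscle myosin Myh11 (-0.76 ± 0.34) and the actin-binding Tagln (-0.55 ± 0.25) were under the unadjusted threshold. Among all genes, 1.02% were below additivity at that threshold. Myh11 was -0.48 without unexposed Wt sample 89 and Tagln -0.29 without exposed Wt sample 7, and 1 member was under the threshold without sample 72 or without sample 25. Endothelial genes had a median of -0.12, with Vwf, the von Willebrand factor, at 0.62 ± 0.29 (0.29 without unexposed Wt sample 25). Adipocyte genes were above 0 in 6 of 6, and in 5 of 6 without sample 72. Adipoq, the adipokine adiponectin, had an interaction of 1.79 ± 0.72 and gave 8.4, 24.5 and 20.3 in unexposed Wt, 4.2, 17.5 and 20.7 in exposed Wt, 7.9, 3.8 and 5.6 in unexposed Hif1a+/- and 13.4, 16.7 and 19 in exposed Hif1a+/-. The unexposed Hif1a+/- samples were low, and the Wt samples spanned the exposed Hif1a+/- values. The median was -0.24 for 7 atrial genes, -0.26 for 6 lymphocyte genes, 0.12 for 6 mesothelial genes, -0.17 for 6 Schwann cell genes and 0.15 for 4 nuclear RNAs. The part of these cell types in the other results was not tested.

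**Figure D5:**
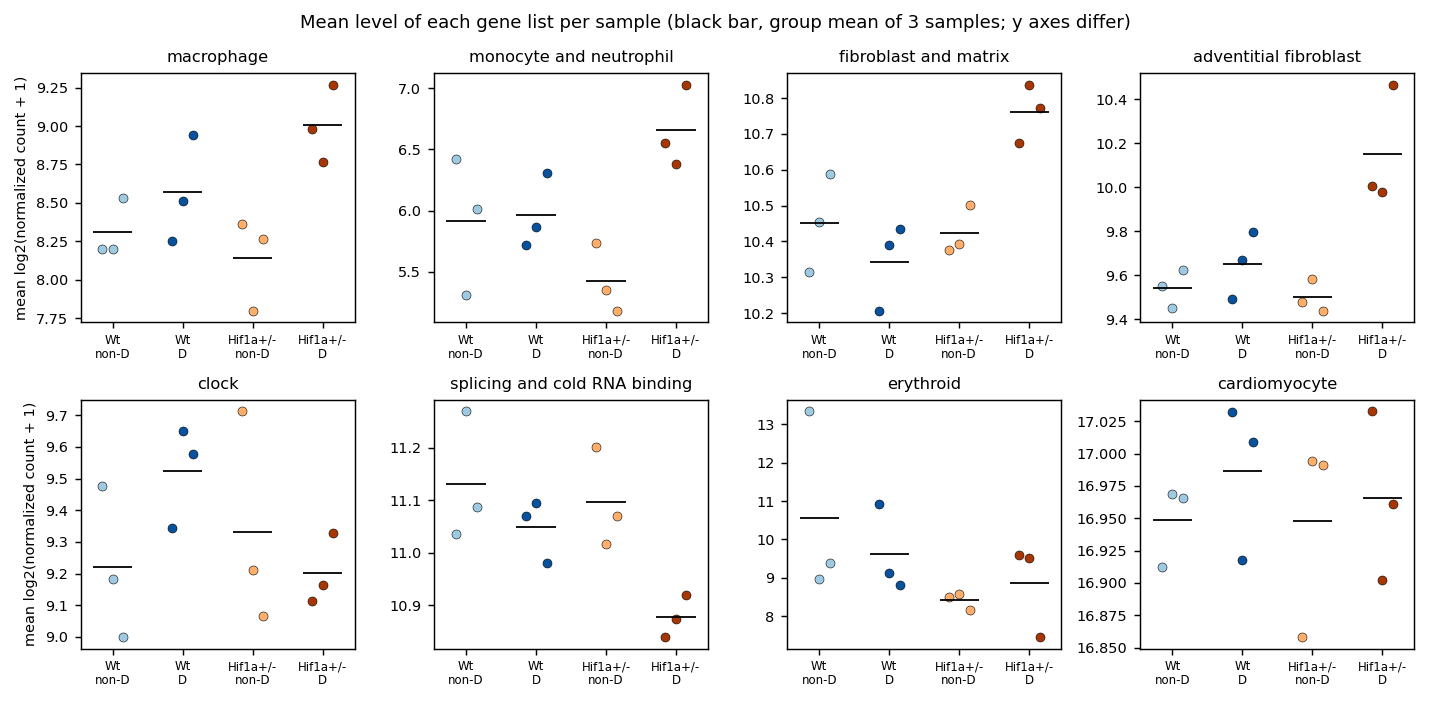
Mean level of 8 gene lists per sample (y axes, mean of log2(normalised count + 1) over the list's tested genes, not starting at 0) in the 4 groups (x axes), with 3 samples per group as points and group means as black bars. Exposed Hif1a+/- samples lie above the other 9 for the adventitial fibroblast list (9.98 to 10.47) and the fibroblast and matrix list (10.68 to 10.84). They lie below the other 9 for splicing and cold RNA-binding genes (10.84 to 10.92). Erythroid genes peak in 1 unexposed Wt sample and cardiomyocyte genes overlap in all groups.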

How the data were processed

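LV RNA of 12 mice was measured by 3′-seq in 4 groups of 3, assigned from the sample labels. Per the labels and the methods, the authors trimmed reads (Trimmomatic), removed rRNA, aligned them to GRCm38 with STAR 2.5.2b and deposited raw HTSeq counts per gene. Their normalised tables were not used. The tally lines that name no gene, 20.2% to 24.2% of a file, were left out. Totals were 16132442 to 39812939 counts per sample. Genes with 10 or more counts in at least 3 samples were kept, and 46488 of 46983 identifiers had a symbol.

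The interaction was tested with edgeR 4.0.16 (R 4.3.3; TMM, quasi-likelihood, 1 fit of 12 samples with 4 group means, Benjamini-Hochberg adjustment, threshold 0.1). DESeq2 1.42.0, limma 3.58.1 (voom), other filters and scalings and leaving out each sample were alternatives, and the code was tested on simulated data. Normalised counts are counts divided by DESeq2 size factors. List scores used log2(normalised count + 1). Named genes were the 14 protein-coding genes per direction with the smallest p among those averaging 50 or more normalised counts. The rule also named the 3 members of each list with the smallest p and 10 genes that the study assayed. Further list members under the unadjusted threshold, list extremes and Vcan were named after their values were seen. The members and lists were chosen with earlier results of these data known. Of 12 cardiac stress genes, 11 were matched. Some items are not reported here.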

Additional observations from a re-analysis of the deposited data

Results flagged for a closer look

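The effect of maternal diabetes differed between the genotypes by the DESeq2 interaction term at an adjusted p under 0.1 in 4 genes. The interaction was 1.38 for Txnip, 1.04 for Fbn1, 1.74 for Duox1 and -0.44 for Ivns1abp on the log2 scale. The edgeR test called none of them. In Txnip (edgeR interaction 1.38) and Fbn1 (edgeR interaction 1.03) all exposed Wt samples were lower than all unexposed Wt samples and all exposed Hif1a+/- samples higher than all unexposed Hif1a+/- samples, and that separation itself was not tested.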

How the results depend on the processing

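The edgeR test called no gene at an adjusted p under 0.1 with size factors in place of TMM, with the filterByExpr filter, with 10 counts in every sample, with robust dispersions or at the 0.05 threshold, and limma-voom called none with or without sample quality weights. DESeq2 called 4. Without a filter on low counts edgeR called 78 of 27093 genes, 60 above and 18 below, of which 76 pass the filter and 10 are among the 28 named genes. The prior degrees of freedom of the dispersion were 151.7 in that fit and 5.375 with the filter. The genes above additivity at an unadjusted p under 0.05 numbered 432 with quality weights and 584 without a filter, and those below 354 and 417. With single samples left out, over edgeR and DESeq2 together, the calls ranged from 0 to 12, the genes above from 124 to 553 and the genes below from 58 to 598. The cause of these changes was not tested.

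None of the 28 named genes changed sign in any alternative. Over the 59 genes followed, 1918 of 2002 alternative values kept their sign and side of the threshold, 42 passed a threshold they had not passed, and 42 changed sign. Gja1 was -0.083 with quality weights, -237.9 normalised counts on the linear scale and -0.13 to 0.17 with single samples left out. H2-Ab1 was 0.11 and Hprt -0.057 with quality weights, and their leave-one-out ranges were -1.19 to 0.26 and -0.069 to 0.069. The ranges were -0.12 to 3.02 for Hbb-bs, -0.13 to 0.047 for Cd36, -0.068 to 0.14 for Tgfb1 and -0.25 to 0.0086 for Pecam1. List medians moved beyond the replicate spread with single samples left out for clock (-0.85 to -0.24), fibroblast and matrix (0.31 to 0.56), splicing (-0.22 to -0.083), smooth muscle (-0.38 to -0.12), erythroid (-0.12 to 3.19), antigen presentation (-0.68 to 0.29), mesothelial (-0.066 to 1.44), interferon (-0.27 to 0.22), Schwann cell (-0.25 to 0.055), nuclear RNA (-0.054 to 0.47), HIF-1 target (-0.14 to 0.083), cardiac stress (-0.39 to 0.014), excitation (-0.12 to 0.051) and cardiomyocyte genes (-0.086 to 0.021). The clock members below additivity at the unadjusted threshold numbered 1 without exposed Hif1a+/- sample 72 and 7 without unexposed Wt sample 25, 2 fits added after the data were seen. No paired analysis was made, because the animal numbers are not shared between groups and the litter of each mouse is not given. Whether mice of different groups were littermates is therefore unknown.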
